A study of Homo sapiens with 12 samples.

Results

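H19 and IGF2 are neighbouring imprinted genes on human chromosome 11, and their chromatin was followed here in 4 related colorectal cancer cell lines. H19 is a long non-coding RNA made from the maternal chromosome, and IGF2 encodes a growth factor made from the paternal chromosome. A control region upstream of H19, bound by the insulator protein CTCF on the maternal copy and methylated on the paternal copy, decides which of the genes can use the enhancers they share. Loss of this imprint with expression of IGF2 from both copies is known in colorectal tumours, and H19 is also the host of the microRNA miR-675. The 3 marks measured have different roles: H3K4me3 is found at promoters in use, Polycomb complexes place H3K27me3 on repressed genes, and the enzyme DOT1L methylates H3K79 along genes that are being transcribed. The reads were not divided by parental allele, so every value is a sum over both copies.

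The study immunoprecipitated each mark once in each line, giving 12 libraries. METS is an epithelial line derived from a lung metastasis of a xenograft, SA is a mesenchymal line derived from soft agar colonies, and SPH is a mesenchymal line derived from colonospheres. DLD1 is the epithelial parental line from which the other 3 come, and all 4 shared the same culture medium, McCoy's 5A, to which serum, penicillin and streptomycin were added. The titles of the derivative libraries also carry the word parental, so the lines were told apart by the descriptions and characteristics. The labels do not say whether a derivative is 1 clone or a pool.

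The members were the counted regions on hg19 that overlap H19 with its control region or IGF2, each with 5 kb on either side. This gave 19 of 244278 regions in all. H3K4me3 contributed 8 of 36400 regions, of which 6 lay at H19 and 2 at IGF2. H3K79me3 contributed 4 of 157878 regions, all at H19. H3K27me3 contributed 7 of 50000 rows, with 2 at H19 and 5 at IGF2. The pair was chosen from measured values of these libraries, since H19 was known to carry high H3K4me3 in METS, so the values at H19 are a description and support nothing by themselves. With 1 library per line and mark there is no replicate spread and no test of any difference. Each fold is a ratio of depth-normalised read counts (CPM, scaled by the library total) with an exact 95% interval that covers counting error only.

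The row that spans H19 runs from 2016406 to 2022700 on chromosome 11, a length of 6.295 kb. The row that spans IGF2 runs from 2150342 to 2170833, a length of 20.492 kb, and the space between the rows measures 127.641 kb. Both genes lie on the minus strand, so upstream is toward the higher coordinate. Library totals lay between 6722508 and 7753937 counts for H3K4me3, between 6165169 and 7521451 for H3K79me3 and between 15605814 and 20410151 for H3K27me3. Chromosome 11 held 5.80% to 5.86% of the H3K4me3 counts, 4.94% to 5.17% of the H3K79me3 counts and 6.41% to 6.47% of the H3K27me3 counts, so its share was close in the 4 lines for each mark.

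The RNA products and the annotated start of H19 are shown to identify the gene, with sequences from RefSeq on GRCh38.p14, another build than the hg19 of the counted regions. Their positions were therefore not set against the regions below, and which counted region holds miR-675 or a start of H19 was not established. miR-675 is encoded on the minus strand, its 5p arm at chr11:1996800-1996822 and its 3p arm at chr11:1996768-1996787. The seeds, bases 2 to 8, are in capitals.
hsa-miR-675-5p: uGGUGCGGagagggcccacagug
hsa-miR-675-3p: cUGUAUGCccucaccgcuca

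The seed of the 5p arm is also the seed of hsa-miR-4466, and the seed of the 3p arm occurs in no other of the 2545 mature human miRNAs in the table. The H19 promoter window holds 250 bases before the annotated start and 50 bases from it, at chr11:2001217-2001516 on the minus strand, and is printed 5′ to 3′ with each CG dinucleotide, the site of DNA methylation, in capitals.
H19 promoter: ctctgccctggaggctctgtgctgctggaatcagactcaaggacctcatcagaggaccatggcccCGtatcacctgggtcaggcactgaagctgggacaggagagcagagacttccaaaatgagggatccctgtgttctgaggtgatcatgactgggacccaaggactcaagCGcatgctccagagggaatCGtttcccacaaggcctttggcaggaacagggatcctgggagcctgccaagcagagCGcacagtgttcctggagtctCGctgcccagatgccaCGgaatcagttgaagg

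This window has 6 CG dinucleotides in 300 bases, against a median of 14 over 35116 human promoter windows of the same length. Fewer CG dinucleotides than at H19 occurred in 33.7% of these windows, and 57.7% of the H19 letters are G or C. On both strands, the TATA box TATAAA, the SP1 box GGGCGG and the E-box CACGTG had 0 matches at H19. They occur in 11.5%, 45.0% and 7.26% of all promoter windows. The core motif of CTCF also had 0 matches at H19 and occurs in 2.41% of all promoter windows. The absence of a match says only that these letters are not in this window. All these values hold for the window at this annotated start, and other starts of H19 transcripts were not examined. Whether this is the main start of H19, or one used in these lines, was not established. The values therefore cannot be read as traits of the H19 promoter in general.

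Within the H19 row, METS carried H3K4me3 where the other 3 lines had almost none. The 3 adjacent regions from 2017295 to 2018997 held 685 counts in METS, against 7 in SA, 10 in SPH and 16 in DLD1. In the same row another region, closer to the upstream end, was lower in METS than in each of the other lines. METS thus differed from the other 3 lines in where H3K4me3 lay at H19 as well as in how much there was.

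**Figure D1:**
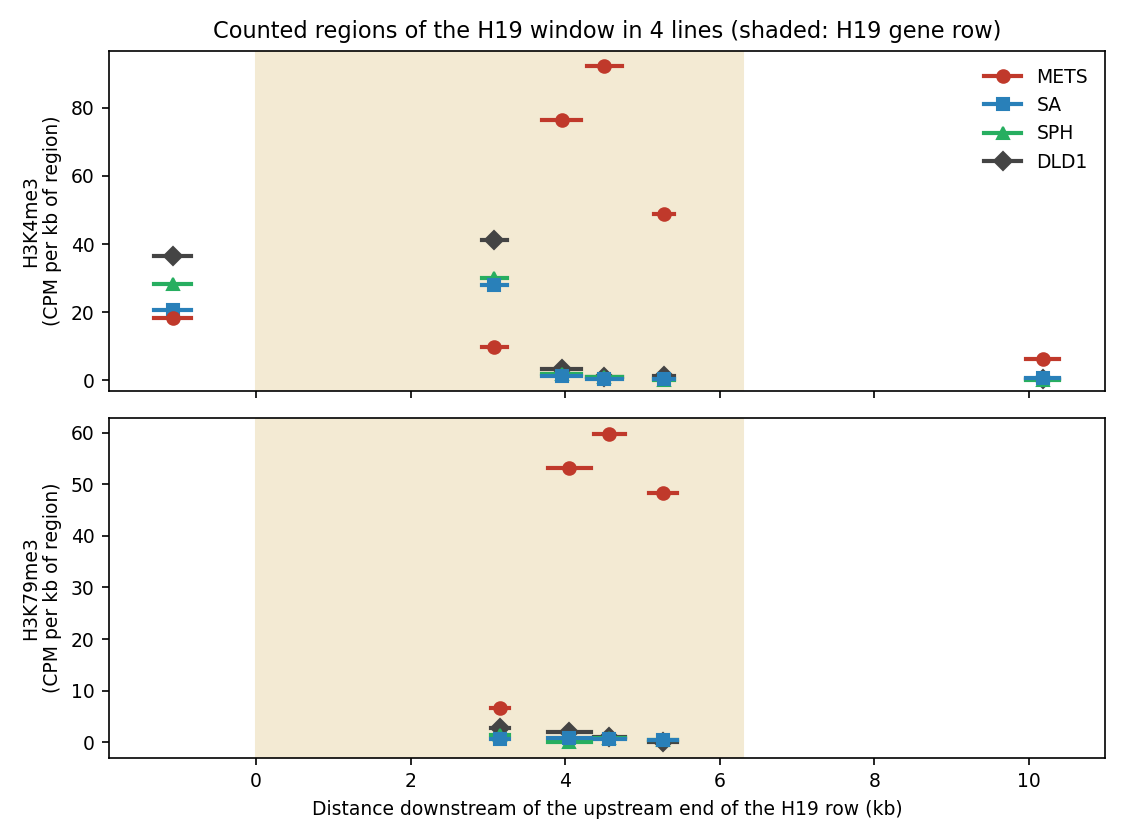
H3K4me3 and H3K79me3 at H19 in CPM per kb (vertical axis), by distance in kb downstream of the upstream end of the H19 row (horizontal axis), with points for METS, SA, SPH and DLD1 and bars that span each region. The shaded span is the H19 row, and METS stands above the other lines at 3 H3K4me3 regions and 3 H3K79me3 regions of that row.

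The region at 2017963-2018424 had the largest ratio. It held 311 counts in METS, 1 in SA, 3 in SPH and 3 in DLD1, which correspond to 42.6 CPM in METS, 0.129 CPM in SA, 0.419 CPM in SPH and 0.446 CPM in DLD1. METS stood far above the 3 other lines, which were within 2 counts of each other. The ratio of METS to DLD1 was 95.4 (95% interval 32.4 to 465). Ranked with 0.5 CPM added to each value, which damps ratios of low counts, it was the highest of the 35629 H3K4me3 regions with a count. Against SA the ratio was 330 (58.8 to 13083), and against SPH it was 102 (34.4 to 495). In terms of level per kb, the region stood at percentile 71.1 of all H3K4me3 regions in METS, against 4.39 in SA, 7.48 in SPH and 7.11 in DLD1. It was thus an upper-range but not extreme H3K4me3 region in METS and close to the bottom in the others.

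Its neighbour at 2018490-2018997 held 284 counts in METS, 5 in SA, 7 in SPH and 11 in DLD1. The level was 38.9 CPM in METS and 1.64 CPM in DLD1, a ratio of 23.8 (13.1 to 48.1), which ranked 6 of 35629 in the same way. The third region of the block, 2017295-2017547, lies nearer the downstream end of the gene. It held 90 counts in METS, 1 in SA, 0 in SPH and 2 in DLD1. The ratio of METS to DLD1 was 41.4 (11.1 to 347) and ranked 12. Against SPH, METS was at least 29.4-fold higher, taking a floor of 3 counts for SPH, where the exact lower limit was 23.4. All 3 regions were high in METS alone.

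A smaller region outside the gene, 2012304-2012739, 3667 bp below the downstream end of the row, had 20 counts in METS, 2 in SA, 0 in SPH and 1 in DLD1. The ratio of METS to DLD1 was 18.4 (2.94 to 763), an interval that spans more than 2 orders of magnitude.

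The region at 2019459-2019780 went the other way. It lies nearest of the in-row regions to the upstream end of the row and held 23 counts in METS, 70 in SA, 69 in SPH and 89 in DLD1. Its level was 3.15 CPM in METS, 9.03 CPM in SA, 9.65 CPM in SPH and 13.2 CPM in DLD1. METS was the lowest line by a wide margin. It was 4.20-fold lower than DLD1 (2.63 to 6.97), ranking 21 from the lowest of 35629, and also 2.87-fold lower than SA (1.77 to 4.81) and 3.06-fold lower than SPH (1.89 to 5.15). SA was 1.47-fold lower than DLD1 (1.06 to 2.04). SPH was 1.37-fold lower than DLD1, with an interval that includes no difference (0.991 to 1.91).

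The H3K4me3 region at 2023542-2024015 lies upstream, 842 bp beyond the row, in the stretch that the window includes for the control region. The control region is the element where CTCF binds the maternal copy. Its bounds were not placed on the counted regions, so which of them it holds, in the row or beyond it, was not established. The region at 2023542-2024015 held 63 counts in METS, 76 in SA, 96 in SPH and 116 in DLD1, or 8.63, 9.80, 13.4 and 17.3 CPM in the same order. METS was 2.0-fold lower than DLD1 (1.46 to 2.76), SA was 1.76-fold lower (1.31 to 2.38) and SPH was 1.29-fold lower (0.973 to 1.70). METS and SA were not separated beyond counting error, METS being 1.14-fold lower (0.803 to 1.61). DLD1 had the highest value of the 4 lines at both this region and the one nearest the upstream end of the row.

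**Figure D2:**
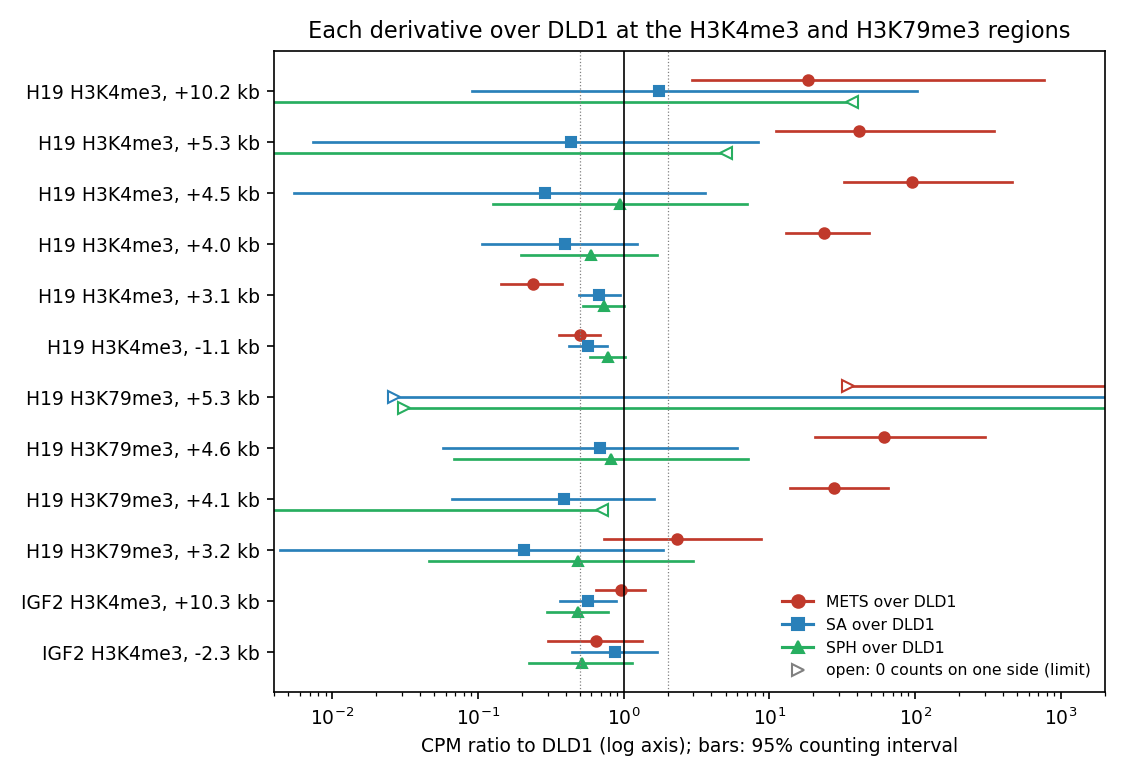
Ratio of each derivative line to DLD1 (horizontal axis, log scale) for each H3K4me3 and H3K79me3 region at H19 and IGF2, named by its distance in kb downstream of the upstream end of its gene row, with 95% counting intervals as bars and open triangles for a limit where 1 line has 0 counts. In METS the H19 H3K4me3 ratios run between 95.4 and a 4.20-fold lower value, while the IGF2 intervals of METS at H3K4me3 include 1.

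A region was counted as past 2-fold when the ratio of CPM, with 0.5 CPM added to each value, was at least 2 or at most its inverse. Since the choice of H19 used the H3K4me3 contrast of METS with DLD1, nothing is read from these counts. Of the 6 H3K4me3 regions at H19, 4 were higher in METS than DLD1 and 1 was lower, where the table as a whole had 4.0% of regions higher and 1.11% lower. Neither IGF2 region passed. In SA and SPH, 0 of the 8 H3K4me3 regions passed against DLD1. Across the table, 0.539% of regions were higher and 2.15% lower in SA, and 3.66% were higher and 3.41% lower in SPH. Set against SA, METS was past 2-fold higher at 4 H19 regions and lower at 1, with 5.28% higher and 0.455% lower in the table. Set against SPH, METS was likewise higher at 4 and lower at 1, with 5.79% higher and 4.15% lower in the table. These comparisons share the METS library, so they are not independent of each other.

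**Figure D3:**
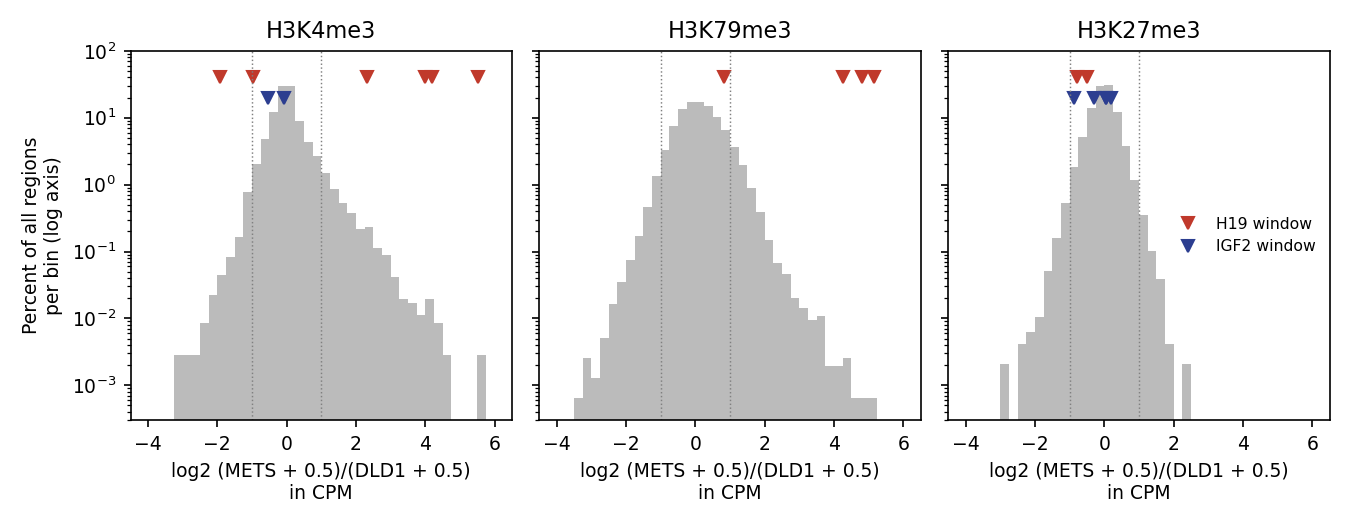
Distribution of the log2 ratio of METS to DLD1 with 0.5 CPM added (horizontal axis) over all regions with a count (vertical axis, percent of regions per bin, log scale), in 1 panel per mark, with triangles at the H19 and IGF2 regions. The H19 triangles reach the right end of the H3K4me3 and H3K79me3 distributions, and the H3K27me3 triangles lie within 2-fold.

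METS divided its H3K4me3 counts of the H19 window differently from the other lines. The block used here was picked for its higher values in METS than DLD1, so its large share in METS follows in part from that choice. A gain in the block alone would also lower the share of every other region. The block of 3 regions from 2017295 to 2018997, which spans 1703 bp and was picked after its values were seen, held 86.6% of the window's counts in METS (Wilson 95% interval 84.0% to 88.8%). The same block held 4.52% in SA (2.20% to 9.03%), 5.71% in SPH (3.13% to 10.2%) and 7.21% in DLD1 (4.48% to 11.4%). The summed block was 39.4-fold higher in METS than DLD1 (24.1 to 69.3). The other 3 regions of the window had 106 counts in METS, 148 in SA, 165 in SPH and 206 in DLD1. Together they were 2.11-fold lower in METS than DLD1 (1.66 to 2.69), 1.61-fold lower in SA (1.29 to 2.0) and 1.33-fold lower in SPH (1.08 to 1.64). In METS these 3 regions did not go 1 way: 2019459-2019780 and 2023542-2024015 were lower than in DLD1, and 2012304-2012739 was higher, with 20 counts in METS and 1 in DLD1. Over the whole window, METS had 791 counts, SA 155, SPH 175 and DLD1 222. The sum was 3.28-fold higher in METS than DLD1 (2.82 to 3.82), but 1.65-fold lower in SA (1.34 to 2.04) and 1.35-fold lower in SPH (1.10 to 1.66).

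**Figure D4:**
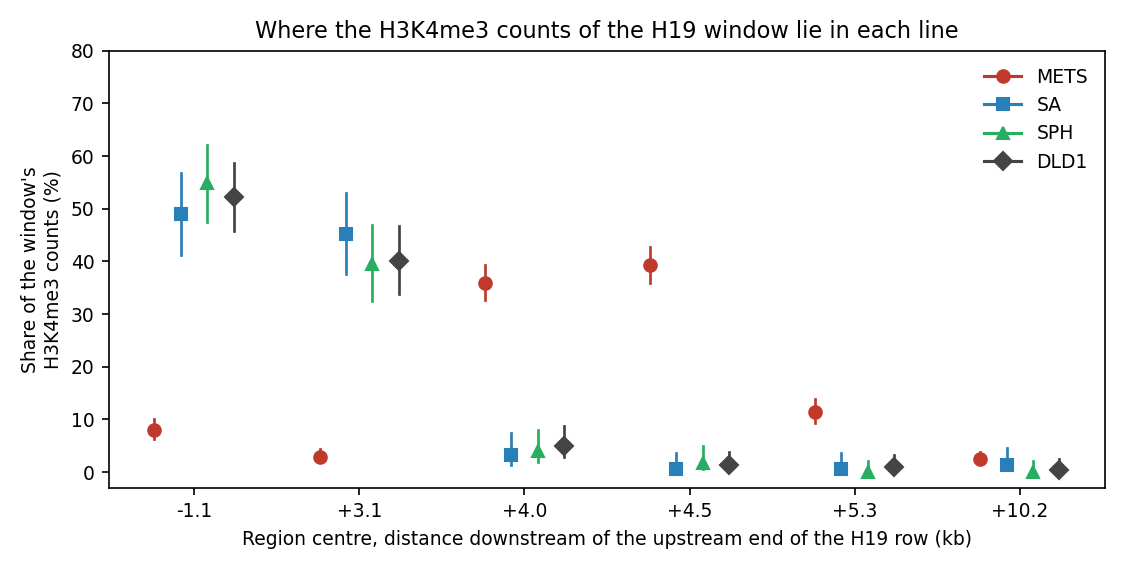
Percent of the H3K4me3 counts of the H19 window that fell in each of its 6 regions (vertical axis), by region (horizontal axis), for METS, SA, SPH and DLD1, with Wilson 95% intervals as bars. In METS the block of 3 regions held 86.6% of the counts, and in DLD1 it held 7.21%.

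H3K79me3 was also high in METS at this block and low in the other lines. Its regions overlap those of H3K4me3: the H3K79me3 region 2017254-2017610 covers 100% of the H3K4me3 region 2017295-2017547, and the H3K79me3 region 2018372-2018924 covers 85.6% of the H3K4me3 region 2018490-2018997. The marks come from separate libraries, but earlier results for both were known when the pair was chosen.

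At 2018372-2018924, H3K79me3 had 189 counts in METS, 3 in SA, 0 in SPH and 8 in DLD1. The ratio of METS to DLD1 was 27.6 (13.7 to 64.9), and METS was at least 60.4-fold higher than SPH against the floor of 3 counts (exact limit 48.6). SPH was lower than DLD1 here, by at least 1.40-fold at the exact limit. At 2017925-2018332 the counts were 157 in METS, 2 in SA, 2 in SPH and 3 in DLD1, a ratio of METS to DLD1 of 61.2 (20.6 to 300). METS was again the only line above a few counts.

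At 2017254-2017610 the counts were 111 in METS, 1 in SA, 1 in SPH and 0 in DLD1. METS, at 17.3 CPM, was at least 43.3-fold higher than DLD1, whose floor of 3 counts equals 0.399 CPM, and the exact limit was 34.6. With 0.5 CPM added, these regions ranked 7, 2 and 1 among the 156120 H3K79me3 regions with a count. Per kb, they stood at percentiles 94.5, 95.7 and 93.3 of H3K79me3 regions in METS. The values in DLD1 were percentiles 10.5, 5.72 and 0 for the same regions.

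The last H3K79me3 region, 2019427-2019663, overlaps the H3K4me3 region that was lower in METS. It had 10 counts in METS, 1 in SA, 2 in SPH and 5 in DLD1. The ratio of METS to DLD1 was 2.34, with an interval that includes no difference (0.728 to 8.72). METS was 11.3-fold higher than SA (1.61 to 491) and 4.79-fold higher than SPH (1.02 to 45.0). H3K4me3 on the overlapping region was 4.20-fold lower in METS than DLD1. The H3K79me3 counts here are too few for a contrast between the marks.

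Nothing is read from the H3K79me3 counts past 2-fold either, since earlier results for this mark were known when the pair was chosen. How regions were called is not given, so a region may have entered the table only through the line where it is high. Of the 4 H3K79me3 regions, 3 were past 2-fold higher in METS than DLD1 and 0 lower, where 7.22% of all regions were higher and 2.08% lower. In SA 0 of 4 passed, with 1.09% of all regions higher and 2.32% lower. In SPH 1 of 4 was lower, with 3.07% higher and 5.17% lower in the table. METS was higher than SA at 4 of 4 regions, with 11.4% higher and 3.18% lower in the table, and higher than SPH at 4 of 4, with 9.30% higher and 1.49% lower. The 4 regions summed to 467 counts in METS, 7 in SA, 5 in SPH and 16 in DLD1, a ratio of METS to DLD1 of 34.1 (20.8 to 60.2). Differences of SA and SPH from DLD1 in this sum were not detectable at this depth: SA was 2.21-fold lower (0.860 to 6.35) and SPH 2.62-fold lower (0.918 to 9.16).

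The surrounding chromosome also carried higher H3K79me3 in METS. Within 1 Mb of the windows and leaving out the members, 84 of 300 H3K79me3 regions (28.0%) were past 2-fold higher in METS than DLD1 and 0 lower. Their median log2 ratio was 0.61, against 0.08 over all regions. In SA the median of these neighbours was -0.25 and in SPH 0.28. For H3K4me3, 16 of 114 neighbouring regions (14.0%) were higher in METS and 0 lower, with a median log2 ratio of 0.13. The part of this wider difference in the values at H19 was not tested. The upper quartile of these H3K79me3 neighbours was a log2 ratio of 1.05, and the block's 3 regions had 5.15, 4.79 and 4.26. Those 3 regions were picked for their high ratio of METS to DLD1, so their place above the neighbours follows from that choice.

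H3K27me3 was counted over rows of very different length, and at H19 it was lowest in METS. The H19 row held 45 counts in METS, 82 in SA, 66 in SPH and 66 in DLD1, or 2.22, 4.34, 3.23 and 4.23 CPM in that order. METS was 1.91-fold lower than DLD1 (1.29 to 2.85) and 1.96-fold lower than SA (1.34 to 2.88). Against SPH it was 1.46-fold lower, with an interval that includes no difference (0.983 to 2.18). SA and DLD1 were not separated by counting error, with a ratio of 1.03 (0.733 to 1.44), and SPH was 1.31-fold lower than DLD1 (0.916 to 1.87). The level per kb of the H19 row stood at percentile 50.9 of all rows in METS, 71.0 in SA, 64.6 in SPH and 68.3 in DLD1. The row beside it at 2012326-2014699 had 8, 19, 16 and 12 counts in METS, SA, SPH and DLD1, too few to separate METS from DLD1 (1.95-fold lower, 0.733 to 5.50).

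IGF2 carried more H3K27me3 per length than H19 in every line, and its level differed little between lines. The IGF2 row held 876 counts in METS, 908 in SA, 756 in SPH and 657 in DLD1, or 43.2, 48.1, 37.0 and 42.1 CPM in that order. Per kb this was 2.11 CPM in METS, 2.35 in SA, 1.81 in SPH and 2.05 in DLD1, between percentiles 90.5 and 92.6 of all rows. METS and DLD1 were not separated, with a ratio of 1.03 (0.926 to 1.14). SA was 1.14-fold higher than DLD1 (1.03 to 1.26) and SPH 1.14-fold lower (1.02 to 1.26). With trimmed-mean (TMM) scaling the SPH difference became 1.05-fold lower with an interval that includes no difference (0.942 to 1.16). The same scaling widened the SA difference to 1.26-fold higher than DLD1 (1.14 to 1.39).

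Per length, IGF2 had 5.98 times the H3K27me3 of H19 in METS (4.43 to 8.26), 3.40 times in SA (2.71 to 4.32), 3.52 times in SPH (2.73 to 4.60) and 3.06 times in DLD1 (2.37 to 4.0). This ratio compares rows of 1 library, so it does not depend on the library totals. METS had the highest ratio, and its interval lies above those of SA and DLD1 but overlaps that of SPH.

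**Figure D5:**
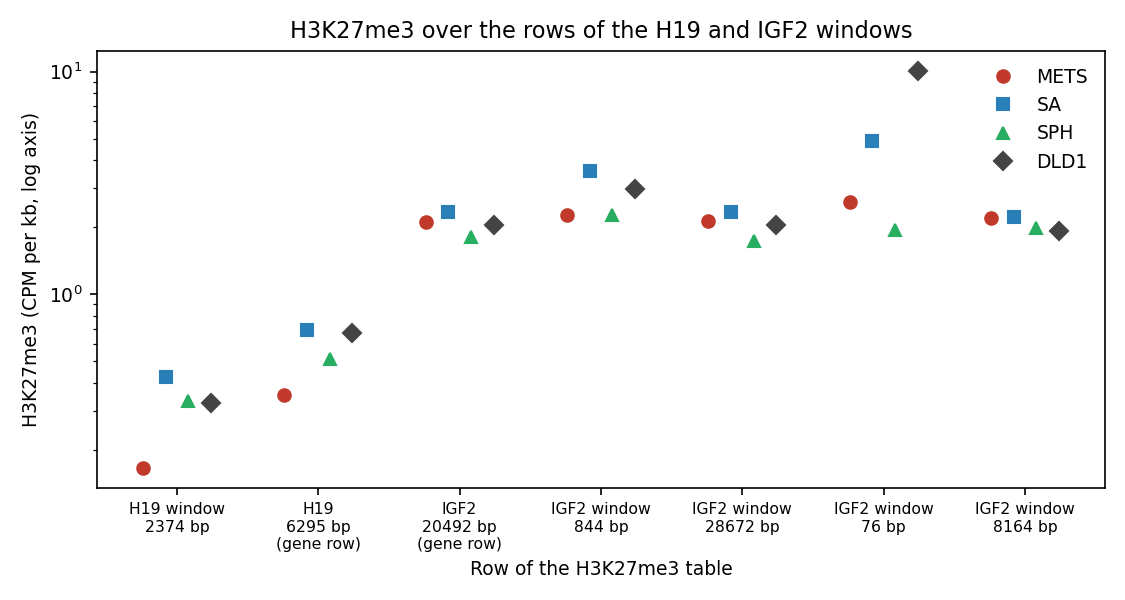
H3K27me3 level in CPM per kb (vertical axis, log scale) for each row at H19 and IGF2 (horizontal axis) in METS, SA, SPH and DLD1. The H19 row lies between 0.352 CPM per kb in METS and 0.689 in SA, while the IGF2 row lies between 1.81 in SPH and 2.35 in SA.

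The other 4 H3K27me3 rows at IGF2 overlap the IGF2 row or lie inside it, so they share reads with it and are not separate evidence. The longest, 2153768-2182439, held 1237 counts in METS, 1274 in SA, 1012 in SPH and 918 in DLD1, and METS differed from DLD1 by a ratio of 1.04 (0.951 to 1.13). The row 2161731-2169894 held 365, 344, 330 and 245 counts, and the row 2150351-2151194 held 39, 57, 39 and 39, in METS, SA, SPH and DLD1. The shortest row, 2155364-2155439, is 76 bp long and held 4, 7, 3 and 12 counts in METS, SA, SPH and DLD1. There METS was 3.90-fold lower than DLD1 (1.18 to 16.6) and SPH was 5.23-fold lower (1.41 to 28.9), while SA was 2.08-fold lower with an interval that includes no difference (0.753 to 6.22). All 3 ratios rest on at most 12 counts in a line.

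None of the 7 H3K27me3 rows passed 2-fold in any of the 5 comparisons. In the table as a whole, 0.504% of rows were higher and 0.763% lower in METS than DLD1, 0.329% higher and 0.488% lower in SA, and 0.707% higher and 1.44% lower in SPH. Against SA, 0.467% of rows were higher and 0.537% lower in METS, and against SPH, 0.992% were higher and 0.571% lower. Passing 2-fold was rare for this mark in the whole table, so a count of 0 is close to the background. Within 1 Mb, neighbouring rows had a median log2 ratio to DLD1 of -0.18 in METS, -0.07 in SA and -0.37 in SPH. The H19 row had -0.80 in METS, 0.03 in SA and -0.34 in SPH on the same scale with 0.5 CPM added. The SPH value was close to the median of its neighbours, and the part of the neighbourhood in either value was not tested.

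At IGF2, H3K4me3 was low in all lines and METS stayed close to DLD1. The region inside the row, 2160354-2160802, held 58 counts in METS, 37 in SA, 29 in SPH and 56 in DLD1, or 7.94, 4.77, 4.05 and 8.33 CPM in that order. METS and DLD1 were above both mesenchymal lines, though per kb the region reached only percentiles 35.8 in METS and 35.6 in DLD1. METS had a ratio to DLD1 of 0.953 (0.649 to 1.40), SA was 1.75-fold lower than DLD1 (1.13 to 2.72) and SPH was 2.05-fold lower (1.29 to 3.34). METS was 1.66-fold higher than SA (1.08 to 2.59) and 1.96-fold higher than SPH (1.23 to 3.17). This region thus orders the lines differently from the H19 block, where DLD1 was with SA and SPH.

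The region 2172894-2173322, 2061 bp upstream of the IGF2 row, held 14 counts in METS, 20 in SA, 11 in SPH and 20 in DLD1, and no line was separated from DLD1 by counting error. Both regions together gave 72 counts in METS, 57 in SA, 40 in SPH and 76 in DLD1. The sum was 1.54-fold lower in SA than DLD1 (1.08 to 2.21) and 2.02-fold lower in SPH (1.36 to 3.04), while METS had a ratio of 0.872 (0.623 to 1.22). IGF2 had no H3K79me3 region in its window. The closest lay 125.7 kb below it, at H19, and 52.7 kb above it, so H3K79me3 at IGF2 itself was not analysed here.

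The edge of the windows decides which regions are members. The nearest H3K4me3 region outside the H19 window, 2010750-2011235, lies 171 bp beyond it and held 71 counts in METS, 2 in SA, 5 in SPH and 19 in DLD1. The nearest outside the IGF2 window, 2143746-2144220, lies 1122 bp beyond it and held 42, 8, 6 and 7 counts in METS, SA, SPH and DLD1. Both were higher in METS than DLD1, with ratios of 3.44 (2.05 to 6.05) and 5.52 (2.46 to 14.6). The nearest H3K27me3 row outside the H19 window, 2004467-2011150, had 28, 50, 43 and 38 counts, lowest in METS, as at H19.

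Regions elsewhere with the most similar pattern over the 4 lines were found by the distance between log2 values of the 3 derivatives relative to DLD1, among regions with at least 20 counts in a line. For the H3K4me3 region 2017963-2018424 the nearest of 31464 candidates was chr6:49764777-49765195, at a distance of 1.34, with 92 counts in METS, 1 in SA, 0 in SPH and 1 in DLD1. For H3K79me3 at 2018372-2018924 the nearest of 108655 was chrX:86798945-86799364, at a distance of 0.785, with 105 counts in METS, 4 in SA, 0 in SPH and 7 in DLD1. Both matches were picked for their likeness to H19, so their high count in METS and low counts in the other lines follow from that choice. For the IGF2 H3K4me3 region the nearest was chr6:3752301-3752604, at 0.0481, with 54, 35, 26 and 52 counts in METS, SA, SPH and DLD1.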

How the data were processed

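The files hold read counts per region as deposited by the authors, judged from whole numbers with unequal column totals. They are on hg19 per the submitters' processing notes. The aligner, region caller, counter and input control are not given in the sources used here. The H3K27me3 table was held in part (its last line states that 7773 entries were skipped). Its totals, members, percentiles and shares of rows past 2-fold therefore cover this part alone.

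Counts were divided by library totals to give CPM. Folds carry exact Clopper-Pearson 95% intervals from SciPy 1.17.1, conditional on the sum of both counts, and shares carry Wilson intervals. Intervals and floors (3 counts for 0) cover counting error only, because there was 1 library per line and mark. PCR duplicates are not distinguished, so the intervals may be too narrow even for counting error. A region passed at 2-fold with 0.5 CPM added. TMM factors came from edgeR 4.0.16 in R 4.3.3, and no p-value was computed. The calculation of folds was checked on simulated data with counting error only. That check used smaller folds and higher counts than the H19 block had against DLD1, so it does not cover the ratios there. Other calculations used Python 3.11.15.

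The members and lists were chosen with earlier results of these data known. Every overlapping region may be named, with the 3 nearest outside and the 3 most alike in pattern (the closest is printed). Alternatives covered scaling, the added value, a median filter, the fold and the window. Pathway genes other than the pair were not analysed here, since gene positions on hg19 were not used.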

Additional observations from a re-analysis of the deposited data

How the results depend on the processing

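Of the ratios recomputed at H19 and IGF2, 3 changed sign. Adding 20 kb to the windows brought in 2143746-2144220 and turned the summed IGF2 H3K4me3 log2 ratio of METS to DLD1 to 0.34 (reported: -0.20). Quantile normalization turned 2017963-2018424 in SPH from -0.09 to 0.08 and 2160354-2160802 in METS from -0.07 to 0.03, both within counting error of no difference. The H3K27me3 row 2153768-2182439 had a log2 ratio of SA to DLD1 of 0.34 with TMM factors. TMM factors add 0.14 (SA) and 0.12 (SPH) to every H3K27me3 log2 ratio to DLD1, and 0.11 (SPH) to every H3K79me3 one. Counts past 2-fold summed over the 3 derivatives moved from 5296 for H3K4me3 to 9841 (0.1 CPM added), 1743 (2 CPM), 252 (regions at or above the median), 17644 (1.5-fold) and 658 (4-fold). For H3K79me3 they moved from 32702 to 63439, 5838, 10511, 120059 and 947, and for H3K27me3 from 2046 to 13895, 650, 1314, 14785 and 21, by the same settings. The share of calls that were higher in METS than DLD1 was 78.3% for H3K4me3 (56.6% with quantile normalization) and 77.6% for H3K79me3 (55.2%). Among regions at or above the median the H3K4me3 split turned, with 16 higher and 20 lower (44.4%), and H3K79me3 had 51.0% higher. With all regions, the share in SA was 20.1% for H3K4me3 (39.8%), 31.9% for H3K79me3 (43.3%) and 40.3% for H3K27me3 (66.9%), and in SPH 51.7% (38.9%), 37.2% (57.4%) and 32.9% (54.2%). At or above the median, SPH had 40.6% higher for H3K4me3 and 53.5% for H3K79me3. No paired analysis was possible because each line and mark had 1 library. Depth limits regions with 0 to 3 counts, where ratios have wide intervals.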

Other observations

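Between the windows of H19 and IGF2 lay 4 H3K4me3 regions and no H3K79me3 region. No H3K27me3 row lay there in the part of its table that was held. At 2036279-2036759 METS had 19 counts, SA 5, SPH 5 and DLD1 7, a ratio of METS to DLD1 of 2.50 (1.01 to 7.03). At 2118178-2118643 METS had 21 counts, SA 2, SPH 3 and DLD1 4, a ratio of 4.83 (1.63 to 19.4). At 2120946-2121437 METS had 14 counts, SA 18, SPH 12 and DLD1 5, a ratio of 2.58 with an interval that includes no difference (0.877 to 9.14). The fourth, 2143746-2144220, is described beside IGF2. METS was the highest line at 3 of these 4 regions, all of them with few counts.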
